A study of Mus musculus with 3 samples.

Results

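Gamma-delta (γδ) T cells were examined among the immune cells that infiltrate the pancreatic islets of NOD mice, a strain that develops autoimmune diabetes. The cells were selected on their own RNA counts. A cell was taken as a γδ T cell when it held at least 2 unique molecular identifiers (UMIs, each standing for 1 captured RNA molecule) of Trdc, the constant gene of the δ chain, at least 1 UMI of the CD3 genes (Cd3d, Cd3e and Cd3g summed), no UMI of Cd4, Cd8b1 or Ncr1 and at most 1 of Cd79a. This gate found 507 cells among the 26142 cells with at least 1000 UMIs and under 10% mitochondrial UMIs. They were set against 14107 αβ T cells of the same libraries, which had at least 1 UMI of Trac, the constant gene of the α chain, no UMI of Trdc and otherwise the same limits on CD3, Ncr1 and Cd79a. Natural killer (NK) cells (at least 1 UMI of Ncr1, none of CD3, 135 cells) and B cells (at least 2 UMIs of Cd79a, none of CD3, 4315 cells) served as further points of reference.

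All cells came from 3 single-cell RNA libraries of live CD45+ cells sorted from the islets of female wild-type NOD mice, which the methods place at 15 to 16 weeks of age and a legend at 14 to 16 weeks. Each library pooled 2 to 3 mice, and the 3 libraries came from 2 independent experiments without a statement of which library belongs to which, so experiment and library cannot be told apart. There was 1 condition and no treatment, and every comparison was between cell types of the same mice. Libraries 1, 2 and 3 held 5844, 9537 and 11566 cells with 33851381, 74775394 and 80806452 UMIs in total. The γδ T cells numbered 94, 214 and 199 and carried 368015, 1452499 and 1225946 UMIs. Their median depth of 3606, 6224 and 5516 UMIs per cell lay near that of the αβ T cells, at 4119, 6219 and 5461.

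T cells that carry a γδ receptor leave the thymus in waves, and many acquire their function there, before they meet antigen. One kind makes interleukin 17 with the help of the transcription factor Maf and settles in barrier and adipose tissues. Another kind is biased towards interferon γ and cytotoxic molecules and shares receptors with NK cells. In the canonical receptor of the interleukin 17 producers that arise in the fetus, the γ chain uses the segment Tcrg-V6 and the δ chain uses Trdv4.

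The share of γδ T cells was 1.64%, 2.33% and 1.77% of all cells kept in the 3 libraries (1.91% ± 0.363, SD, n = 3), and 1.94% over all cells (exact 95% interval 1.78% to 2.11%, counting error only). Of T cells, γδ plus αβ, they made up 4.03%, 4.11% and 2.81%, so library 3 was lowest by this measure and library 1 by the former. From 810 cells with at least 2 Trdc UMIs, the CD3 condition left 770 cells and the Cd4 condition 661. The Cd8b1 condition left 625, the Ncr1 condition 539 and the Cd79a condition 507. The libraries shared 12, 18 and 29 cell barcodes in pairs, and no barcode was that of a γδ T cell in both members of a pair.

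The label was checked against the γ chain, which the gate did not use. At least 1 UMI of a γ constant gene (Tcrg-C1, Tcrg-C2 or Tcrg-C4) was found in 376 of the 507 cells, or 74.2% (exact interval 70.1% to 77.9%). Of these, 103 cells carried Tcrg-C4 with neither Tcrg-C1 nor Tcrg-C2. Tcrg-C4 and Trdc were also present in NK cells (values further on), so Tcrg-C4 does not tell γδ T cells from NK cells with CD3 RNA. The threshold of 2 Trdc UMIs fell on a graded scale. Just inside it, at exactly 2 UMIs, 63.2%, 57.5% and 60.5% of 19, 40 and 38 cells carried a γ constant gene. Just outside it, at 1 UMI, the shares were 47.1%, 42.1% and 33.3% of 34, 57 and 57 cells, and at 0 UMIs they were 6.67%, 3.02% and 4.09%. The median γδ T cell held 4 Trdc UMIs and the highest 41. Trac, the marker of the other lineage, was seen in 95 of the γδ T cells (18.7%), and a β constant gene in 493 (97.2%). Trbc1 did not pass the test against αβ T cells (log2 fold change −0.09 ± 0.09, SE, adjusted p = 0.678), whereas Trbc2 fell by 0.86 on the log2 scale (SE 0.09, adjusted p = 4.94e-09, edgeR quasi-likelihood test). RNA of the β chain was thus common in cells of the gate, and the name γδ T cells stands for the gate throughout.

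**Figure D1:**
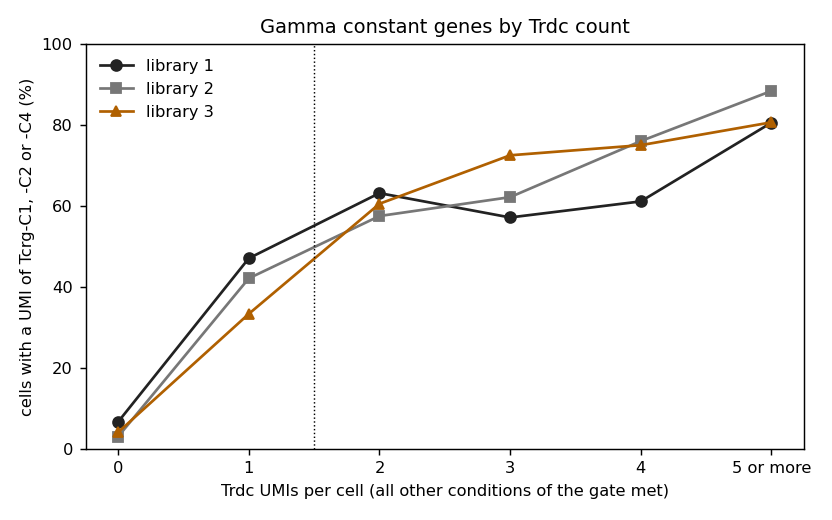
Share of cells (percent, vertical axis) with a UMI of Tcrg-C1, Tcrg-C2 or Tcrg-C4 by the number of Trdc UMIs per cell (horizontal axis), for cells that met every other condition of the gate, with 1 line per library. The dotted line marks the threshold, and the share rose from 3.02% to 6.67% at 0 Trdc UMIs to between 80.6% and 88.4% at 5 or more.

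The 3 γ constant genes lie on chromosome 13 (GRCm38, the assembly also called mm10): Tcrg-C1 at chr13:19214103-19217024 (+), Tcrg-C2 at chr13:19304649-19307551 (−) and Tcrg-C4 at chr13:19344558-19352756 (+). The first 60 coding bases of each are shown because the cells are divided by these genes further on, with capitals where a base differs from Tcrg-C1.
Tcrg-C1: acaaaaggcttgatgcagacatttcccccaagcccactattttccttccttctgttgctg
Tcrg-C2: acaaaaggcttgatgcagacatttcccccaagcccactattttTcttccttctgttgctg
Tcrg-C4: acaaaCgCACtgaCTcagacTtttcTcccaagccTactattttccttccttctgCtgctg
Over the 60 bases Tcrg-C2 differed from Tcrg-C1 at 1 position and Tcrg-C4 at 10. Over the whole coding sequence Tcrg-C1 and Tcrg-C2 were 94.6% identical, and Tcrg-C4 was 72.2% and 71.0% identical to them. Of the 834 windows of 91 bases in Tcrg-C1, a length set for this comparison alone, 14 (1.7%) also occurred in Tcrg-C2 and 0 in Tcrg-C4. The length of the reads as aligned is not given in the sources used here, and reads that fall within a shared stretch cannot be assigned to either gene.

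Tcrg-C4 was seen in 242 γδ T cells (47.7%), Tcrg-C2 in 176 (34.7%) and Tcrg-C1 in 167 (32.9%), while Tcrg-C3 gave a UMI in 3 cells. Summed levels of Tcrg-C1 were 87.0, 184 and 138 CPM (UMIs of the gene in 1000000 UMIs of the cell group) in the γδ T cells of libraries 1, 2 and 3 and 2.44, 1.21 and 1.08 CPM in αβ T cells, and no NK cell had a UMI. For Tcrg-C4 the levels were 160.3, 167 and 157 CPM against 13.7, 6.18 and 7.48 CPM in αβ T cells, with 61.1, 107 and 58.9 CPM in NK cells. Tcrg-C4 RNA, like Trdc at 149, 128 and 183 CPM, was thus present in NK cells, and Tcrg-C1 RNA was not seen there. Trdc was below 0.4 CPM in the B cells of every library.

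Several variable segments were seen. Among segments named for the δ chain alone, Trdv4 was seen most often, in 155 cells (26, 73 and 56), ahead of Trdv2-2 in 17 cells and Trdv5 in 8. The 10 segments named for both the α and the δ chain gave a UMI in 12 cells together, and those named for the α chain alone were not counted here. Among γ segments Trgv2 was seen in 123 cells, Tcrg-V1 in 103, Tcrg-V6 in 47, Tcrg-V4 in 17 and Tcrg-V5 in 11. Reads of a 3′ library reach variable segments poorly, so a cell without such a UMI cannot be said to lack the segment. The last 60 coding bases of Tcrg-V6 (chr13:19190870-19190929, +) and Trdv4 (chr14:54075456-54075515, +) are given since these segments set apart the cells described further on, with capitals at the last in-frame TGT, the cysteine codon that opens the hypervariable loop.
Tcrg-V6: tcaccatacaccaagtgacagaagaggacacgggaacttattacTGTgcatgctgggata
Trdv4: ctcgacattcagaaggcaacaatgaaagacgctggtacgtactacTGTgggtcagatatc
Trdv4 had 567 UMIs in γδ T cells and 2 in all αβ T cells, a ratio of levels of 8924.6 (exact interval 2459.2 to 73872.4, counting error only). Trdc, the constant gene of the same chain, was asked for in the γδ T cells and excluded from the αβ T cells. The ratio thus describes the gate and is no separate result.

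Against αβ T cells, 782 genes were higher and 743 lower in γδ T cells among 10849 tested, which is 14.1% of genes in either direction, 7.21% higher and 6.85% lower (edgeR quasi-likelihood test on UMIs summed per library, library as a block, Benjamini-Hochberg adjusted p under 0.05). The genes of the gate were left out of this count, and the genes counted here had no part in choosing the cells. The median log2 fold change over all genes was −0.04. Without the library block the counts were 393 and 204, without library 2 they were 455 and 391, and without library 3 they were 482 and 373. Of 25 γ and δ receptor genes besides Trdc, 8 passed the count filter and all 8 were higher, while of 21 α and β receptor genes tested 9 were lower and none higher. Since these genes encode the receptors by which the cells were defined, those counts describe the gate and are no separate result.

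Genes of the interleukin 17 programme were among the largest differences. Of 24 genes listed for it, 22 were tested, 20 were higher and 1, Maf, was lower, with a median log2 fold change of 4.15. Il17a, which encodes interleukin 17A, stood at 182, 57.1 and 115 CPM in γδ T cells and at 0.534, 0 and 0.0646 CPM in αβ T cells, where 10 UMIs were found in all. Its log2 fold change was 9.76 ± 0.34 (SE, adjusted p = 1.33e-22), with library 1 highest and no overlap between the groups. Cd163l1, a scavenger receptor also called SCART1, had 187, 216 and 159.9 CPM against 0.229, 0.714 and 0.517 CPM, a log2 fold change of 8.33 ± 0.19 (adjusted p = 9.17e-29). Neither gene had a UMI in NK cells, against which the γδ level was at least 22.2-fold higher for Il17a and at least 44.1-fold for Cd163l1, taking 3 UMIs over the NK cells as the floor.

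Receptors and regulators of this programme followed the same direction. Il23r, the receptor of the cytokine that sustains these cells, was at 51.6, 37.2 and 15.5 CPM against 0.153, 0.165 and 0.323 CPM in αβ T cells (log2 fold change 6.86 ± 0.49, adjusted p = 6.07e-14). Zbtb16, the gene of the innate-like T-cell regulator PLZF, was at 62.5, 57.1 and 62.8 CPM against 2.59, 0.659 and 2.03 CPM (5.26 ± 0.30, adjusted p = 2.14e-16). The groups did not overlap for either gene, although Il23r rested on 92 UMIs. Il17f, Il1r1, Ltb4r1 and Sox13 were higher by 7.40, 5.97, 6.28 and 5.89 on the log2 scale. Blk, a Src-family kinase, was higher by 5.83 but stood at 70.1 CPM in B cells, above the 55.3 CPM of the γδ T cells, so it marks this programme only among T cells. Ccr6, a homing receptor often linked to interleukin 17 producers, did not pass the test (0.36 ± 0.45, adjusted p = 0.719).

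Maf was the exception among these genes. Its level was 136, 145 and 113 CPM in γδ T cells and 217, 163 and 154 CPM in αβ T cells, a fall of 0.45 on the log2 scale (adjusted p = 0.00764) that lost the call without library 3 (adjusted p = 0.195) and without the block (adjusted p = 0.164). Against CD8 αβ T cells alone Maf was higher (1.99 ± 0.19, adjusted p = 2.61e-07) and against CD4 αβ T cells lower (−1.11 ± 0.17, adjusted p = 6.78e-05).

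**Figure D2:**
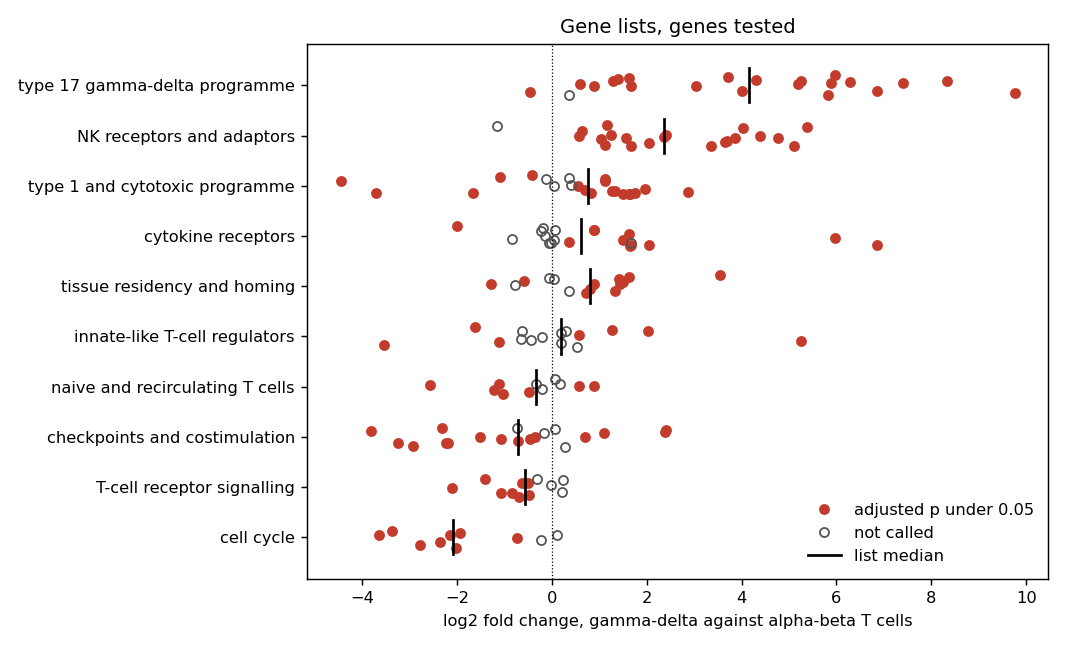
Log2 fold change of γδ against αβ T cells (horizontal axis) for each tested gene of 10 lists (rows), with filled points at an adjusted p under 0.05 and a black bar at the list median. Among these 10 lists the type 17 list reaches furthest to the right, with a median of 4.15, and the cell cycle list lies lowest, with a median of −2.08. Over all lists, the γ and δ receptor genes (5.87) and the NK cell list (4.38) had higher medians. The CD8 T cell list had a lower one (−3.70).

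Cytotoxic and type 1 genes gave a mixed picture. Of 22 listed and tested, 13 were higher and 5 lower, with a median log2 fold change of 0.76. Markers of NK cells were higher alongside them, at 7 of 7 tested, and the calls of Gzma, Eomes, Gzmb and Prf1 were lost when cells with a UMI of an NK receptor gene were left out of both groups (adjusted p = 0.726, 0.855, 0.71 and 0.947, values further on). Gzma, the gene of the serine protease granzyme A, was at 481, 408 and 202 CPM in γδ T cells and at 60.1, 41.9 and 35.7 CPM in αβ T cells (2.88 ± 0.13, adjusted p = 6.82e-20). Tbx21, which encodes the type 1 regulator T-bet, was at 38.0, 26.2 and 28.5 CPM against 14.9, 5.77 and 5.80 CPM (1.96 ± 0.25, adjusted p = 9.83e-08). Il2rb, the interleukin 2 and 15 receptor chain, was at 446, 730.5 and 701 CPM against 189.7, 242 and 205 CPM (1.49 ± 0.11, adjusted p = 7.34e-14). All 3 genes separated the groups. The related T-box gene Eomes was higher by less (0.83 ± 0.14, adjusted p = 2.09e-05), a call lost without library 3 (0.56, adjusted p = 0.101) and under the cell limits of the study (0.38, adjusted p = 0.40).

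Other type 1 genes went the opposite way. Ifng, the gene of interferon γ, was at 13.6, 9.64 and 13.1 CPM in γδ T cells against 41.8, 21.1 and 20.7 CPM, a fall of 1.10 on the log2 scale (adjusted p = 0.00131). Gzmk, a granzyme typical of memory CD8 T cells, was at 0, 7.57 and 6.53 CPM against 63.6, 80.1 and 76.8 CPM (−3.70 ± 0.25, adjusted p = 1.47e-14). The chemokine gene Ccl3 had 2 UMIs in γδ T cells, and its level was 18.8 times higher in αβ T cells (exact interval 5.2 to 155.7). Ccl4 and Stat4 were also lower, by 1.66 and 0.42 on the log2 scale. Both of these calls were lost without library 2 (adjusted p = 0.181 and 0.249), and that of Stat4 also without library 3 (adjusted p = 0.131). Against αβ T cells with no UMI of Cd4 or Cd8b1, only Gzmk of the listed type 1 genes was called lower. Ifng and Stat4 were called lower against CD8 and against CD4 αβ T cells, and Ccl3 and Ccl4 against neither.

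Receptors and adaptors of NK cells were higher than in the αβ T cells as a whole at 20 of 21 tested with none lower and a median log2 fold change of 2.36. Klra1, an inhibitory lectin-like receptor of the Ly49 family, was at 97.8, 101 and 124 CPM in γδ T cells, 6.49, 5.69 and 7.0 CPM in αβ T cells and 435, 457 and 455 CPM in NK cells. It was thus higher than in αβ T cells (4.04 ± 0.16, adjusted p = 8.53e-21) and lower than in NK cells (−1.83 ± 0.14, adjusted p = 2.55e-08). Fcer1g, a signalling adaptor, showed the same order, at 321, 159 and 135 CPM against 20.9, 10.6 and 12.6 CPM in αβ T cells (3.68 ± 0.13, adjusted p = 2.38e-22) and 1548, 745 and 919 CPM in NK cells. Members of the Klra family are near-identical copies whose reads can be split between them, so single members are uncertain.

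Transcripts that define NK cells moved with these genes. All 7 tested genes of the NK cell list (Eomes, Klra4, Klra7, Klra8, Klra9, Klre1 and Klri2) were higher in γδ than in αβ T cells, the call of Klri2 being lost without library 1 (adjusted p = 0.064) and without library 3 (adjusted p = 0.679). Against CD8 αβ T cells alone, 4 of the 7 were higher (Klra4, Klra7, Klra8 and Klra9) and none lower. The list of 8 summed to 310, 191 and 290.4 CPM in γδ T cells, 109, 86.8 and 83.6 CPM in αβ T cells and 2057, 1658 and 2002 CPM in NK cells. Its most abundant gene in γδ T cells was Eomes, and Ncr1 was at 0 by the gate. A UMI of 1 of the 6 lectin-like genes was found in 108 γδ T cells (21.3%). Cells with such a UMI were therefore left out of both groups, which kept 399 γδ and 12948 αβ T cells. Gzma, Eomes and Prf1 then no longer passed the test (log2 fold changes 0.26 ± 0.31, 0.10 ± 0.20 and −0.061 ± 0.27, adjusted p = 0.726, 0.855 and 0.947), and Tyrobp, an adaptor gene higher by 1.56 with all cells, was lower (−1.03 ± 0.32, adjusted p = 0.0308). Ccl5, Klra1, Fcer1g, Tbx21 and Il2rb stayed higher, at 0.39, 3.81, 2.81, 1.88 and 1.37 (largest adjusted p = 0.00393, for Ccl5). Whether the cells are γδ T cells or NK cells with CD3 RNA was not tested. Il17a and Cd163l1 had log2 fold changes of 10.02 and 8.80 in this fit.

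**Figure D3:**
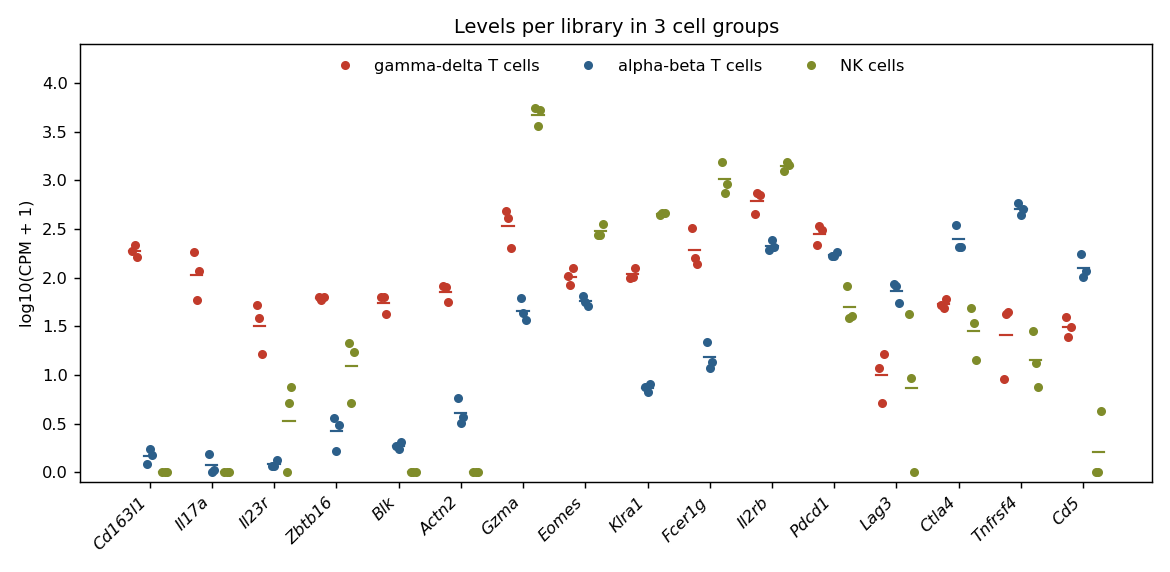
Level of 16 genes, as log10(CPM + 1) on the vertical axis, in γδ T cells, αβ T cells and NK cells, with 1 point per library and a bar at the mean of the 3 transformed values. The type 17 genes on the left are highest in γδ T cells, the cytotoxic and NK genes in the middle lie between αβ T cells and NK cells, and Lag3, Ctla4, Tnfrsf4 and Cd5 on the right are lower than in αβ T cells.

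The αβ group mixes CD4, CD8 and double-negative cells, the last being cells with no UMI of Cd4 or Cd8b1, so each was compared on its own in 1 joint fit of 10690 genes that also held NK cells. Cd8a, Cd40lg and Foxp3 were higher in the double-negative cells than in γδ T cells, so that name stands for missing UMIs only. Called genes in either direction made up 13.9% against 3120 CD8 T cells, 18.5% against 5481 CD4 T cells, 13.3% against 5074 double-negative T cells and 7.45% against NK cells. The type 17 list was higher in γδ T cells in each comparison, at 21 of 23 tested genes against CD8 T cells, 20 against CD4 T cells, 19 against double-negative T cells and 13 against NK cells. The cytotoxic list depended on the partner. Against CD4 T cells 14 of 22 genes were higher and 3 lower, against CD8 T cells 8 were higher and 3 lower, against double-negative T cells 15 were higher and 1 lower, and against NK cells none was higher and 12 were lower. The list of NK receptors and adaptors also gave other counts by partner, with 13 of 21 genes higher and 1 lower (Klrd1, −0.62 ± 0.17, adjusted p = 0.0162) against CD8 T cells, 20 higher and none lower against CD4 T cells and 18 higher and none lower against double-negative T cells. Eomes did not differ detectably from CD8 T cells (−0.15 ± 0.17, adjusted p = 0.632), and neither did Gzmb (0.15 ± 0.22, adjusted p = 0.748). These comparisons share the γδ sums and are not independent of each other.

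Fewest genes were called against NK cells, with 486 genes higher in γδ T cells (4.55%) and 310 lower (2.9%), and the NK sums were also the smallest, at 696008 UMIs over 135 cells. Without library 2 the counts were 233 and 130, and without library 3 they were 219 and 133. Of the NK receptor list 14 of 21 genes were lower in γδ T cells and none higher. Gzma was at 5486, 3625 and 5215 CPM in NK cells, 3.53 ± 0.30 on the log2 scale above γδ T cells (adjusted p = 1.76e-07). Tmsb15a, a thymosin gene, had 3 UMIs in γδ T cells and 77 in NK cells, a ratio of levels of 112.3 (exact interval 37.0 to 556.7). Cma1, a mast cell chymase gene, and Serpinb9b, a serpin gene, fell by 5.51 and 4.14 on the log2 scale, as did Gzmc by 4.82, a call lost without library 2. On the other side, Actn2, an α-actinin gene, and Blk had no UMI in NK cells, and the γδ levels were at least 16.1-fold and 12.5-fold higher. Rflnb was at 84.2, 254 and 245 CPM in γδ T cells and had 1 UMI in NK cells.

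Beyond the lists, the genes with the largest rise over αβ T cells at 50 CPM or more included Spry2, Krt83, Klra5 and Actn2. Spry2, an inhibitor of receptor kinase signalling, was higher by 5.25, yet NK cells held more of it, at 319, 222 and 180.1 CPM against 73.4, 48.9 and 54.7 CPM. Krt83, a keratin gene, was higher by 4.91 and did not differ detectably from NK cells (0.50 ± 0.29, adjusted p = 0.379). Among the genes with the largest fall were Cd8a, which pairs with the gated Cd8b1, Nrn1, Tnfsf8, Penk, Cd200 and Izumo1r, at −4.48, −4.12, −3.97, −3.69, −3.24 and −3.07 on the log2 scale. Tnfsf8, the gene of CD30 ligand, was at 5.43, 9.64 and 16.3 CPM against 217, 157 and 184 CPM.

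Genes of T-cell receptor signalling were lower than in the αβ T cells as a whole where they passed the test, at 8 of 12 with none higher and a median log2 fold change of −0.57. Against CD8 and double-negative αβ T cells 6 and 7 of the 12 were lower, and Zap70 was higher in both. Against CD4 αβ T cells 9 were lower and none higher. Cd247 was not called against CD8 or double-negative cells, and Cd2 was not called against CD8 cells. Cd5, an inhibitory receptor whose level tracks the strength of the receptor signal, was at 38.0, 23.4 and 30.2 CPM in γδ T cells and at 174, 99.3 and 115 CPM in αβ T cells (−2.11 ± 0.16, adjusted p = 2.33e-13). Cd6, its close relative, fell by 1.41 and the costimulatory receptor gene Cd28 by 1.08 (adjusted p = 5.84e-10 and 1.12e-09). The library values did not overlap for any of these 3 genes. Lck, the kinase that starts the cascade, fell by 0.48 with overlapping groups, and that call was lost without library 2 and without library 3.

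The study asked about the checkpoint receptors PD1 and TIGIT and the TIGIT competitor CD226 in islet T cells, and γδ T cells carried RNA of each. Pdcd1, the gene of PD1, was at 217, 335 and 305 CPM in γδ T cells and at 164, 167 and 182 CPM in αβ T cells, higher in each library (0.70 ± 0.11, adjusted p = 1.32e-05, or 0.0746 without the block). Tigit was at 13.6, 11.0 and 8.97 CPM against 28.0, 17.4 and 12.6 CPM, which did not pass the test (−0.74 ± 0.27, adjusted p = 0.0594) and overlapped. Cd226 was at 62.5, 27.5 and 26.9 CPM against 23.9, 11.2 and 14.9 CPM (1.10 ± 0.20, adjusted p = 9.06e-05, or 0.175 without the block). Against CD8 αβ T cells alone, at 40.1, 14.9 and 18.0 CPM, Cd226 did not pass the test (0.56 ± 0.23, adjusted p = 0.12) and overlapped, while Pdcd1 was higher (0.66 ± 0.17, adjusted p = 0.014) and Tigit did not pass (−0.51 ± 0.31, adjusted p = 0.332). Tigit was called lower against CD4 αβ T cells and was not called against double-negative αβ T cells. Cd226 and Pdcd1 were called higher against both of these groups. NK cells held more Cd226, at 115, 94.6 and 68.7 CPM, and γδ T cells were lower (−1.15 ± 0.31, adjusted p = 0.0234). Of the 19 checkpoint and costimulation genes, 4 were higher (Cd160, Cd200r1, Cd226 and Pdcd1) and 11 lower, with a median log2 fold change of −0.71.

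Cd200r1, an inhibitory receptor gene, was at 38.0, 31.0 and 49.8 CPM in γδ T cells and at 5.88, 6.70 and 8.47 CPM in αβ T cells (2.38 ± 0.23, adjusted p = 1.92e-10), with no overlap. Cd160, a receptor gene shared with NK cells, was at 21.7, 16.5 and 22 CPM against 19.5, 1.62 and 1.94 CPM (2.40 ± 0.39, adjusted p = 1.31e-05). Its groups overlapped, and its call was lost with the cells that hold an NK receptor UMI left out of both groups (0.85 ± 0.51, adjusted p = 0.368).

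Tnfrsf4, the gene of the costimulatory receptor OX40, was at 8.15, 41.3 and 43.2 CPM against 586, 434 and 508 CPM (−3.80 ± 0.17, adjusted p = 2.84e-19). Lag3 was at 10.9, 4.13 and 15.5 CPM against 85.4, 81.7 and 54.0 CPM (−2.93 ± 0.26, adjusted p = 2.05e-11). Ctla4 was at 51.6, 47.5 and 59.5 CPM against 346, 207 and 206 CPM (−2.18 ± 0.14, adjusted p = 8.25e-15). The groups stood clear of each other for these genes. Havcr2, which encodes TIM3, and Tox, a regulator of exhausted T cells, fell by 3.25 and 1.52. Tnfrsf9 did not pass the test (0.07 ± 0.12, adjusted p = 0.832).

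Among homing and residency genes, 9 of 15 tested were higher and 2 lower (median 0.81). Cxcr6, a chemokine receptor of tissue lymphocytes, was at 394, 341 and 259 CPM against 118, 117 and 109 CPM (1.44 ± 0.11, adjusted p = 8.29e-13). Itga1, the collagen-binding integrin chain CD49a, was at 59.8, 28.2 and 23.7 CPM against 4.73, 2.36 and 1.98 CPM (3.54 ± 0.29, adjusted p = 3.85e-12). Rgs1 and Cd69, genes of tissue retention, were higher by 1.34 and 0.88. Itgae, the integrin chain CD103, did not pass the test (−0.78 ± 0.31, adjusted p = 0.0875). In the naive and recirculating list 2 of 11 were higher, among them Il7r, and 5 lower, including Ccr7 (−1.11 ± 0.10) and Lef1 (−1.03 ± 0.12). Il7r, the receptor of the survival cytokine interleukin 7, was at 1024, 629.9 and 565 CPM against 326, 369.9 and 398 CPM (0.89 ± 0.13, adjusted p = 1.01e-06). It was also called higher against CD8 and against CD4 αβ T cells, but not against double-negative αβ T cells.

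Cytokine receptor genes were higher at 10 of 20 tested and lower at 1 (median 0.62), including Il2ra (2.04), Il18r1 (1.67), Il12rb2 (1.66) and Ifngr1 (0.90). Of 13 cytokine and repair genes tested 5 were higher and 3 lower. Areg, a growth factor for epithelium, differed widely between libraries, at 8.15, 84.0 and 13.1 CPM, and did not pass the test (−0.06 ± 0.25, adjusted p = 0.934). Il22 had 1 UMI in all γδ T cells. Calca, which encodes a neuropeptide and was listed for type 2 innate lymphoid cells, was at 21.7, 111 and 100.3 CPM against 9.16, 5.99 and 8.86 CPM (3.44 ± 0.23, adjusted p = 1.98e-14), while Il5, Il13 and Nmur1 of that list were not tested for want of counts. Of the other tested genes of the list, Il1rl1, the receptor of interleukin 33, was lower (−1.99 ± 0.46, adjusted p = 0.00159) and Gata3, the type 2 regulator, did not pass the test (0.20 ± 0.15, adjusted p = 0.485). Of 15 innate-like regulators 4 were higher, including Plac8 (2.03) and Ly6a (1.28), and 3 lower, including Egr2, which had 1 UMI in γδ T cells.

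Cell cycle genes were lower at 8 of 10 with none higher (median −2.08), but library 1 stood apart. Mki67, a marker of dividing cells, was at 43.5, 0.689 and 2.45 CPM in γδ T cells and at 113, 12.7 and 13.4 CPM in αβ T cells, and the groups overlapped. Against double-negative αβ T cells none of the 10 genes was called by edgeR in either direction, with 1 at an unadjusted p under 0.05 and a median of −0.94. Of 10 interferon-response genes 1 was higher and 3 lower, of which Ifi27l2a fell by 2.30 (adjusted p = 6.41e-20).

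RNA of other islet cells was low in γδ T cells. The 10 genes of the B cell list summed to 326, 284 and 354 CPM in γδ T cells, 1473, 786 and 1375 CPM in αβ T cells and 50596, 41093 and 47739.7 CPM in B cells, and 5 of 9 tested were lower in γδ T cells. Igkc was the most abundant of them in γδ T cells. H2-Aa, a class II antigen presentation gene of that list, fell by 2.64, a change that turned to 0.16 under the cell limits of the study. The macrophage list summed to 8.15, 30.3 and 25.3 CPM against 39.8, 35.8 and 48.6 CPM, with none of 6 tested genes called by edgeR and 3 at an unadjusted p under 0.05, and Lyz2 led it. Of its 12 genes 3 were at 0. The endocrine and exocrine list summed to 76.1, 22 and 22 CPM against 97.1, 44.9 and 75.8 CPM, led by the insulin gene Ins2. Of 8 tested genes of this list 3 were lower in γδ T cells and none higher. Ppy, the pancreatic polypeptide gene, had 3 UMIs in γδ T cells and was at 1.37, 10.1 and 35.2 CPM in αβ T cells (adjusted p = 1.73e-08), and Sst, the somatostatin gene, had 1 UMI against 1.53, 1.81 and 11.0 CPM (adjusted p = 0.00108, or 0.332 without library 3). Ins2 fell by 0.90 (adjusted p = 0.0414), a call lost without any 1 of the libraries (adjusted p = 0.0651 to 0.487). The αβ T cells thus held more of this RNA, with Ppy and Sst highest in library 3, and all 3 calls were lost without the block (adjusted p = 0.283, 0.339 and 0.622).

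To compare shares of cells at equal depth, every cell was thinned to 2000 UMIs, which left out 7 γδ, 106 αβ, 5 NK and 24 B cells. At least 1 UMI of 6 type 17 genes (Il17a, Il17f, Il23r, Cd163l1, Blk and Sox13) was then found in 28.9%, 30.5% and 23.4% of γδ T cells (27.6% ± 3.76) and in 0.292% ± 0.0678 of αβ T cells. At least 1 UMI of 6 type 1 genes (Tbx21, Eomes, Ifng, Gzma, Gzmb and Prf1) was found in 29.6% ± 1.2 of γδ T cells, 17.9% ± 3.93 of αβ T cells and 84.4% ± 4.27 of NK cells. The αβ T cells here mix CD4, CD8 and double-negative cells. In the fit of summed UMIs Ifng was lower in γδ T cells. The calls of Gzma, Eomes, Gzmb and Prf1 were lost there without the cells that hold an NK receptor UMI. In B cells the type 17 share was 13.1% ± 1.81, where Blk is expressed, and the type 1 share was 1.74% ± 0.850. Cd163l1 alone was found in 24.0% ± 3.48 of γδ T cells, 0.0694% ± 0.0623 of αβ T cells and no B cell. Pdcd1 was found in 34.5% ± 7.02 of γδ T cells, 18.7% ± 2.44 of αβ T cells and 0.469% ± 0.318 of B cells. γδ T cells were higher than αβ T cells in 3 of 3 libraries for both gene sets, Cd163l1 and Pdcd1, and the exact sign-flip test over 3 libraries cannot go below its p of 0.25, two-sided.

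γδ T cells were not uniform. Without thinning, 115 cells (22.7%) carried type 17 genes only, 181 (35.7%) type 1 genes only, 51 (10.1%) both and 160 (31.6%) neither. NK cells also carry the type 1 genes, and their part in these counts was not tested. No cell held Il17a together with Eomes among 43 cells with the former and 106 with the latter, and 3 cells held Cd163l1 together with Eomes. These are descriptions of cells within the same 3 libraries, which are not replicates, and they carry no test.

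Most type 17 genes were more frequent in the cells with Trdv4. Of the 24 listed genes, 22 were seen in a larger share of Trdv4-positive cells than of the other γδ T cells. The exceptions were Sox4 (1.94% against 11.6%) and 5830411N06Rik (0 against 5 cells), and Rora, Il18r1 and Il7r were also common in the others, at 40.3%, 42.0% and 61.6%. Trdv4-positive cells made up 27.7%, 34.1% and 28.1% of γδ T cells, with a median of 2860, 6052 and 5516 UMIs against 3790, 6472 and 5516 in the others. Cd163l1 was at 779, 622 and 569 CPM in Trdv4-positive cells and at 17.5, 22.4 and 4.5 CPM in the rest, and was seen in 90.3% of 155 cells against 3.98% of 352. Il17a was seen in 26.5% against 0.568%, Il23r in 38.7% against 1.99% and Serpinb1a, a neutrophil elastase inhibitor, in 61.9% against 3.41%. Maf, which over all γδ T cells was not above αβ T cells, was at 401, 373 and 305 CPM in Trdv4-positive cells against 59.5, 35.6 and 40.5 CPM, and at 217, 163 and 154 CPM in αβ T cells.

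Single homing, checkpoint and cytotoxic genes also differed in frequency between the 2 sets of cells. They went both ways and were not tested between these sets. In Trdv4-positive cells Cxcr6 was seen in 85.2% against 31.0%, Il7r in 92.9% against 61.6%, Pdcd1 in 71.6% against 42.3% and Icos in 83.2% against 50.6%. In the other direction, Cd27, a marker of interferon-biased γδ T cells, was seen in 18.7% against 83.0%, S1pr1 in 14.8% against 60.8% and Ccl5 in 16.1% against 75.0%. Eomes was seen in 3.87% against 28.4%, Fcer1g in 3.23% against 31.2% and Tigit in 0.645% against 8.81%. Among these genes seen less often with Trdv4, Ccl5, Eomes and Fcer1g were higher in NK cells than in γδ T cells, and S1pr1 was lower. Cd27 and Tigit did not differ detectably from NK cells (adjusted p = 0.996 and 0.852, edgeR). The part of NK cells in the difference by Trdv4 was not tested. Klrk1, the gene of NKG2D, was near equal at 30.3% and 33.2%, and Tbx21 was seen in 16.8% and 10.8%.

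**Figure D4:**
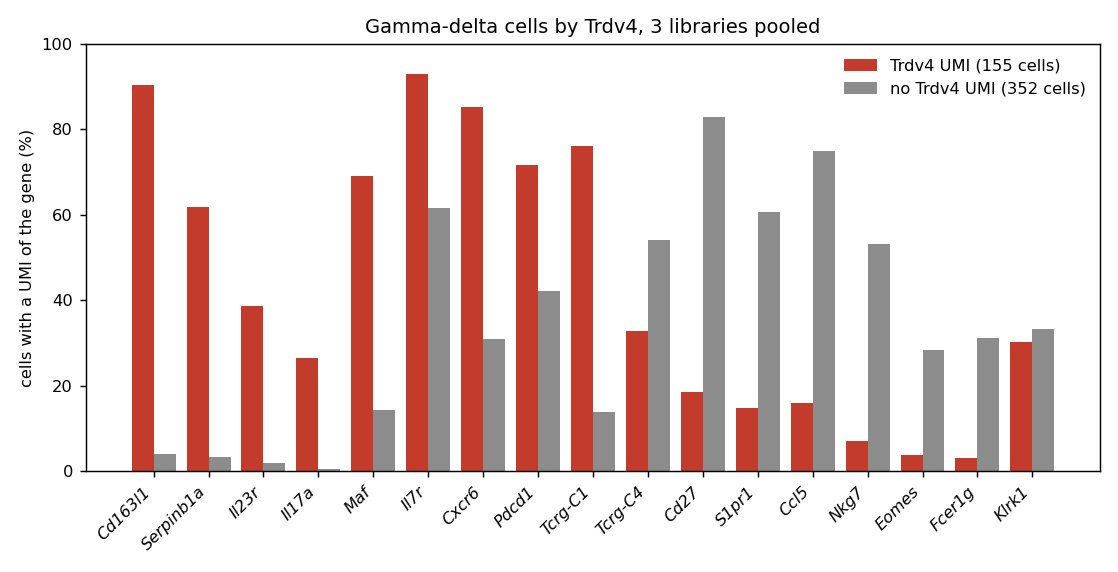
Percent of γδ T cells with a UMI of each gene (vertical axis), in 155 cells with a Trdv4 UMI (red) and 352 cells without one (grey), all 3 libraries pooled. Genes on the left are more frequent with Trdv4, up to 90.3% for Cd163l1, and Cd27, S1pr1 and Ccl5 towards the right are more frequent without it.

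Cells with a variable segment more often carried 1 of the constant genes. Of the 47 cells with Tcrg-V6, 41 (87.2%) carried Tcrg-C1, which lies downstream of it on the same strand, against 27.4% of the other cells, 44 carried Trdv4 and all 47 carried Cd163l1. Of 103 cells with Tcrg-V1, 83 (80.6%) carried Tcrg-C4, again the constant gene downstream, against 39.4% of the others. Of 123 cells with Trgv2, 73 (59.3%) carried Tcrg-C2, against 26.8% of the others. Tcrg-C1 was seen in 76.1% of Trdv4-positive cells and 13.9% of the rest, whereas Tcrg-C4 was seen in 32.9% and 54.3%.

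The γ constant genes, which had no part in the gate, gave another division of the cells that was tested across libraries. Cells with Tcrg-C4 and neither Tcrg-C1 nor Tcrg-C2 (18, 38 and 47 cells) were compared with cells with Tcrg-C1 or Tcrg-C2 and no Tcrg-C4 (25, 58 and 51 cells). The 139 cells with both kinds and the 131 with none were left out. Of 3497 genes tested, 85 were higher in the Tcrg-C4 cells (2.43%) and 171 lower (4.89%), or 7.32% in all (edgeR quasi-likelihood test, library as a block). Without library 2, no gene was called higher and 1, Il17a, lower, with 319 of 2805 genes at an unadjusted p under 0.05 (edgeR). Without library 3 the counts were 30 and 70, and without the block they were 19 and 88. The split therefore rests on library 2 for its calls, whereas Serpinb1a, Tnfsf11, Avpi1, Il17a, Plac8, Mt1 and Tbc1d4 kept their direction in each of these fits.

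Of the type 17 list, 15 of 17 tested genes were lower in Tcrg-C4 cells and none higher, at a median log2 fold change of −2.36 against 0.01 for all genes tested. Serpinb1a was at 32.8, 16.3 and 14.2 CPM in Tcrg-C4 cells and at 113, 561 and 419 CPM in Tcrg-C1 or Tcrg-C2 cells (−4.48 ± 0.37, adjusted p = 3.93e-08, or 0.0571 without library 2). Cd163l1 was at 142, 73.3 and 14.2 CPM against 364, 443 and 385 CPM (−2.74 ± 0.34, adjusted p = 1.09e-05). Il17a had UMIs in Tcrg-C4 cells of library 2 alone, at 32.6 CPM, and was at 138, 93.0 and 464 CPM in the others (−4.11 ± 0.60, adjusted p = 6.22e-05). Its call was lost without library 3 (adjusted p = 0.0527). Tnfsf11, the gene of RANK ligand, and Avpi1 were lower by 4.16 and 3.55, and Jcad had 2 UMIs in Tcrg-C4 cells against 73, a level 30.7 times higher in the others (exact interval 8.2 to 258.6). Cxcr6 was at 273, 244 and 121 CPM against 715, 643 and 547 CPM (−1.61 ± 0.20, adjusted p = 1.41e-05), 1 of 5 residency genes lower of 11 tested.

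In Tcrg-C4 cells the higher genes were of other kinds. Plac8, an interferon-inducible gene of recirculating lymphocytes, was at 153, 391 and 694 CPM against 75.2, 109 and 100.5 CPM (2.21 ± 0.26, adjusted p = 4.68e-06, or 0.0571 without library 2). Car2, a carbonic anhydrase gene, was at 186, 52.9 and 71.2 CPM against 37.6, 5.47 and 6.93 CPM (2.94 ± 0.48, adjusted p = 0.000255, or 0.0889 without library 2). Mt1, a metallothionein gene, 1700025G04Rik and Tbc1d4 were higher by 2.18, 1.77 and 1.73. Of the naive list 4 of 9 genes were higher (Ccr7, Lef1, S1pr1 and Satb1) and Il7r was lower. Of the NK receptor list 5 of 10 were higher and of the cytotoxic list 4 of 15 (Ccl5, Eomes, Nkg7 and Xcl1), with none lower in either, although library values overlapped for those 4 genes. The NK cell list moved with them, as both of its tested genes were higher, Eomes by 1.41 (adjusted p = 0.0474) and Klre1 by 1.2 (SE 0.35, adjusted p = 0.0366). NK cells carry Tcrg-C4 RNA (75.7 CPM on average) and had no UMI of Tcrg-C1, and the part of NK cells in this difference was not tested. Pdcd1 did not pass the test between the 2 sets (−0.48 ± 0.22, adjusted p = 0.243).

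**Figure D5:**
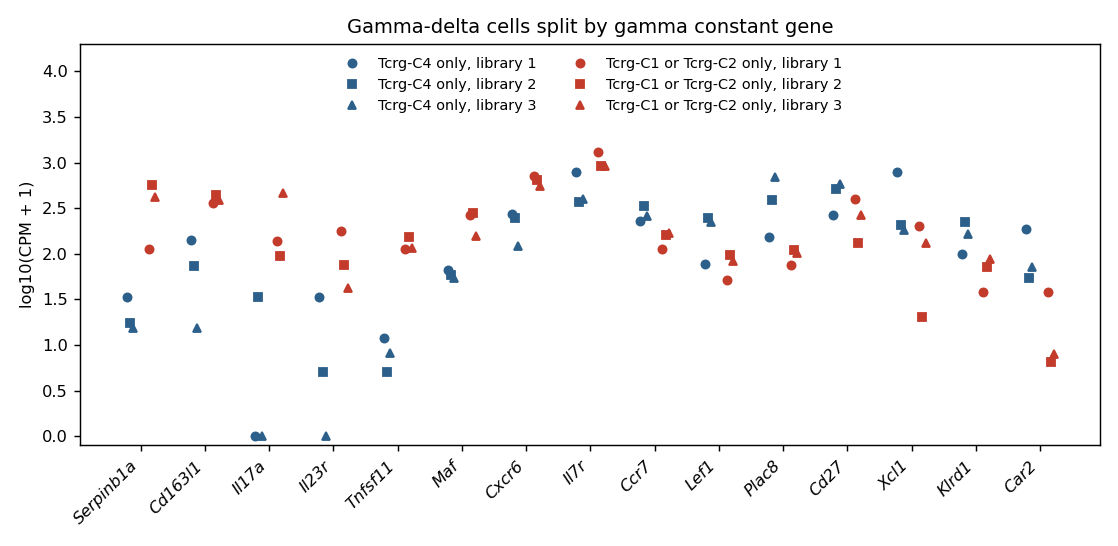
Level of 15 genes, as log10(CPM + 1) on the vertical axis, in γδ T cells with Tcrg-C4 only (blue) and with Tcrg-C1 or Tcrg-C2 only (red), with the symbol marking the library. Serpinb1a, Cd163l1, Tnfsf11, Maf and Cxcr6 are lower in the Tcrg-C4 cells of every library, and Plac8, Ccr7 and Car2 are higher in each.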

How the data were processed

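Live CD45+ islet cells of female wild-type NOD mice were profiled in 3 libraries (10x Genomics 3′ v3 chemistry per the labels, while the methods name a later version of the kit). The authors deposited raw UMI counts per gene and cell (32285 genes) from Cell Ranger 6.0.1 on mm10, and no normalization or annotation of the authors was used. Cells were gated on raw counts with the limits given above. The members, gene lists and tests were chosen with earlier results of these data known. UMIs were summed per library and cell group where at least 10 cells were present and tested with edgeR 4.0.16 (TMM, filterByExpr, glmQLFit and glmQLFTest) in R 4.3.3 with the library as a block, and the SE is the log2 fold change divided by the square root of F. The 2 sums of each library share their mice, and their deviations from the group means correlated with r = 0.29, 0.20 and 0.23 within a library and from -0.27 to 0.18 between libraries. Each library pooled mice of 1 strain, so p-values measure the spread between these 3 libraries. The genes named are those of the gate, the receptor genes, members of the lists, and by rule the 12 genes (5 against NK cells and in the split) with the largest change in each direction at 50 CPM or more in the higher group and the same sign in 3 of 3 libraries. Exact intervals are at 95% and cover counting error only. A ratio against 0 UMIs uses a floor of 3 UMIs over the group. Scripts were tested on simulated data. Some genes of the lists and of the rule are not reported here, and they stay in the counts and medians. Sequences and coordinates are from GENCODE M21 and its genome, GRCm38.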

Additional observations from a re-analysis of the deposited data

How the results depend on the processing

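The count of genes higher and lower than in αβ T cells, 782 and 743, was 393 and 204 with no replicate block, 520 and 387 under the cell limits of the study and 455 to 794 and 373 to 760 when a library was left out, and the lower count was 361 with DESeq2 and 453 against αβ T cells without Cd4 or Cd8b1 UMIs. With no replicate block the counts were 412 and 174 against CD8 T cells, 553 and 436 against CD4 T cells, 401 and 184 against double-negative T cells, 241 and 169 against NK cells and 19 and 88 for the Tcrg-C4 cells. Leaving out a library gave 392 to 880 and 235 to 699 against CD8 T cells, 514 to 1095 and 496 to 1004 against CD4 T cells, 350 to 956 and 229 to 775 against double-negative T cells, 219 to 552 and 130 to 329 against NK cells, and 0 to 90 and 1 to 200 for the Tcrg-C4 cells. The share of γδ T cells among cells kept was 2.51% with 1 Trdc UMI asked, 1.57% with 3, 1.44% with a γ constant UMI also asked, 1.58% with Trac at 0 and 1.53% without cells that hold an NK receptor UMI, and among T cells it was 4.44% with 1 Trdc UMI and 2.60% with a γ constant UMI. With the γδ T cells that hold an NK receptor UMI left out, an alternative chosen after seeing the data that leaves the αβ T cells untrimmed, the log2 fold change turned to −0.29 for Ccl5, −0.55 for Eomes, −0.10 for Gzma, −0.052 for Gzmb, −0.65 for Nkg7, −0.31 for Prf1 and −1.31 for Tyrobp, and to −11.70 for Klre1 and −9.70 for Klri2, which chose those cells. With such cells left out of both groups, also chosen after seeing the data, the counts were 673 and 543, Prf1 turned to −0.061 and Tyrobp to −1.03, while Ccl5 (0.39), Eomes (0.10), Gzma (0.26) and Gzmb (0.23) stayed above 0 and Nkg7, which had not passed the test, was at −0.14. Ccr9 turned to −0.23 with 3 Trdc UMIs and −0.34 with a γ constant UMI. Under the limits of the study H2-Aa turned to 0.16, H2-Ab1 to 0.10 and Rsad2 to 0.23, and against αβ T cells without Cd4 or Cd8b1 Itgb1 turned to 0.51. The cause of the other changes was not tested. Cells marked by Scrublet could not be left out as planned, since it marked 557, 2 and 1 cells, and the 7.6% of cells with the highest scores were left out instead, which gave 819 and 763. The depth of library 1, at 368015 UMIs in γδ T cells, limits what low genes can show.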
